A study of Mus musculus with 2 samples.

Results

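The data described here are the transcripts of 10 ion channel genes in sorted cells of the mouse small intestine, measured by single-cell RNA sequencing (scRNA-Seq). The genes are Abcc8, Kcnj11, Scn3a, Cacna1a, Cacna1c, Cacna2d1, Trpa1, Trpm2, Piezo2 and Asic5, taken by gene symbol from the 32285 genes of the count matrices, and all 10 were found. Cells came from Neurog3Cre; Rosa26tdtomato mice, labelled WT, and from Neurog3Cre-FoxO1 f/f; Rosa26tdtomato mice, labelled NFKO, all 4 to 6 weeks old. Each genotype was 1 library, made from whole small intestines of 4 to 5 pooled animals after the pancreas was dissected away and Tomato+ cells were sorted. Both genotypes carried the Cre driver and the reporter, so the libraries differed by label in the floxed FoxO1 allele. Neurog3Cre marks the descendants of cells that once expressed Neurog3, the transcription factor that commits gut progenitors to the endocrine fate. With 1 library per genotype there was no replicate and no test, and every interval given is a 95% interval that covers counting error alone. A difference between the libraries cannot be told apart from differences between the animals pooled in each.

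Enteroendocrine cells are the hormone-secreting cells of the gut epithelium, and many of them are electrically excitable. A nutrient, chemical or mechanical stimulus depolarises the membrane, voltage-gated sodium and calcium channels open, and the calcium that enters triggers release of peptide hormone or, in enterochromaffin cells, of serotonin. Channels of this kind set which stimuli a cell can answer. Abcc8 and Kcnj11 encode the regulatory subunit SUR1 and the pore Kir6.2 of the ATP-sensitive potassium (KATP) channel, which couples glucose metabolism to membrane voltage. Scn3a encodes the voltage-gated sodium channel Nav1.3, Cacna1a the pore of the P/Q-type and Cacna1c that of the L-type calcium channel, and Cacna2d1 an auxiliary calcium channel subunit that is the target of gabapentin. Trpa1 is the irritant receptor, Trpm2 a calcium-permeable channel opened by ADP-ribose and oxidative stress, Piezo2 a mechanically opened cation channel, and Asic5 the bile acid-sensitive channel of the acid-sensing family.

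After filters on genes, unique molecular identifiers (UMIs, each standing for 1 captured transcript), mitochondrial share and doublet score, 3003 of 5051 barcodes remained in the WT library and 5292 of 7540 in the NFKO-labelled library. The median depth was 16780 and 16622 UMIs per cell. The mitochondrial limit alone would have removed 35.6% and 17.3% of barcodes. The libraries shared 6 barcodes, of which 4 were kept. Foxo1 did not separate them in all kept cells (11.6 against 12.5 CPM, the counts per 1e6 UMIs, and a ratio of 1.07, 0.983 to 1.17). In enteroendocrine-like cells its ratio of 0.828 stood beside 0.809 for Foxo3 and 0.825 for Foxo4. Where the reads fall relative to the deleted part of Foxo1 was not given in the sources used here, so the counts do not check the deletion, and the name NFKO-labelled library is used for the other one throughout. By Y-linked transcripts and Xist, 796 enteroendocrine-like cells of the WT library typed as male and 2 as female, against 124 and 1670 in the NFKO-labelled library, so the sex of the pooled mice cannot be told apart from the genotype. The heat shock gene Hspa1a stood at 0.102 of its WT level in the enteroendocrine-like cells of the NFKO-labelled library.

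Cells were clustered without any channel gene and named from marker lists. Of the kept cells, 983 in the WT library and 1866 in the NFKO-labelled library were enteroendocrine-like, with median depths of 12047 and 15292 UMIs. Within them, 203 and 520 cells were enterochromaffin-like, in clusters with Tph1 (the rate-limiting enzyme of serotonin synthesis), Reg4, Lmx1a and Slc18a1 among their markers. A further 196 and 372 cells were progenitor-like, with Neurog3 and Pax4. The remaining endocrine cells were split by the peptide hormone that took at least 50% of a cell's hormone UMIs and at least 1% of all its UMIs. This gave 202 and 406 Gip-dominant, 118 and 116 Gcg/Pyy-dominant, 79 and 173 Cck-dominant, 23 and 30 Nts-dominant, 39 and 90 Sst-dominant and 14 and 27 Ghrl-dominant cells, with 109 and 132 left as mixed or low. The orders of groups given for each gene leave out these mixed or low cells except where they are named. Of the cells split in this way, 85 of 584 and 166 of 974 had a leading hormone between 40 and 60% of their hormone UMIs. Goblet-like, Paneth-like, tuft-like, enterocyte-like, stem-like and cycling cells, 1925 and 2933 in all, are called non-endocrine here. An immune-gene cluster of 38 and 306 cells and a shallow cluster of 57 and 187 cells stayed unnamed.

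Promoter sequence from RefSeq on build GRCm38.p6 was taken for 4 of the 10 genes (Cacna1c, Cacna2d1, Trpm2 and Asic5), and Piezo2 was left out of this search. Those of Asic5 and Trpm2 are shown because these were the members called higher in the NFKO-labelled library. Each is the 250 bases before the transcript start, on the gene's own strand, at chr3:81996672-81996921 (plus strand) for Asic5 and chr10:77969873-77970122 (minus strand) for Trpm2. Both windows lie inside the span of their gene in the GENCODE annotation, which places Asic5 at chr3:81982290-82021233 and Trpm2 at chr10:77907722-77970563. Capitals mark a TATAAA match.
Asic5: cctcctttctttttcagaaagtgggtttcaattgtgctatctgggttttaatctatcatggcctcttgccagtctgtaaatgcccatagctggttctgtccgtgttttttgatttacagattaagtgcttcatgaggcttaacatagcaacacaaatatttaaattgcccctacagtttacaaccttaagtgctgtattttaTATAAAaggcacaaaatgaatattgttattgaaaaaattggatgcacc
Trpm2: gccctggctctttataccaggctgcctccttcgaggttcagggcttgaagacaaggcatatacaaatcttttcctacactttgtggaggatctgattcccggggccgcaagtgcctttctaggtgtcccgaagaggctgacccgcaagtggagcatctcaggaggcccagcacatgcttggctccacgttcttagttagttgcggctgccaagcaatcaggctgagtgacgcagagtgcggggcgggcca
The Asic5 window was poor in G and C (35.6%) and held 1 CpG, whereas the Trpm2 window had 56.8% and 10 CpGs. Asic5 held TATAAA on the coding strand with its first base 48 bases before the start, a motif found in 7.59% of the 32851 promoter windows of the same length. Neither window held the forkhead motif TGTTTAC on either strand, which 3.17% of all windows hold, or the E-box CAGATG, which 14.4% hold. These matches are descriptions of the letters in 1 window and say nothing of binding.

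The members were transcribed mainly in the endocrine lineage. Of the 10 genes, 9 passed the minimum of 50 UMIs over enteroendocrine-like and non-endocrine cells, and all 9 were at least 2-fold higher in enteroendocrine-like cells in both libraries. Piezo2 had no UMI and was not compared. Among all genes compared in the same way, 43.6% in WT and 39.2% in the NFKO-labelled library were at least 2-fold higher, and 10.3% and 11.5% at least 2-fold lower. With median-of-ratios scaling, which moves all log2 ratios down by 0.86 in WT and 0.66 in the NFKO-labelled library, the split was 19.9% higher and 21.8% lower in WT and 22.6% and 19.9% in the NFKO-labelled library, and the same 9 members were higher. The median log2 ratio of the 9 members was 6.38 in WT and 5.92 in the NFKO-labelled library, beside 0.82 and 0.69 over all genes.

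The separation was widest in WT for Asic5, at 155-fold, and Trpm2, at 116-fold, against 89.1-fold and 55.4-fold in the NFKO-labelled library. Cacna2d1 was 108-fold higher in WT endocrine cells and 116-fold higher in those of the NFKO-labelled library. Trpa1 followed at 104-fold and 93.9-fold. The KATP subunits were close to each other, Abcc8 at 83.5-fold and 54.0-fold and Kcnj11 at 75.4-fold and 60.5-fold. Scn3a stood at 52.1-fold and 111-fold. The libraries also differed in the Scn3a UMIs of stem-like cells, given further on. Cacna1a was 49.1-fold and 40.1-fold higher. Cacna1c was the least separated of the 9, at 21.0-fold in WT and 26.8-fold in the NFKO-labelled library.

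**Figure D1:**
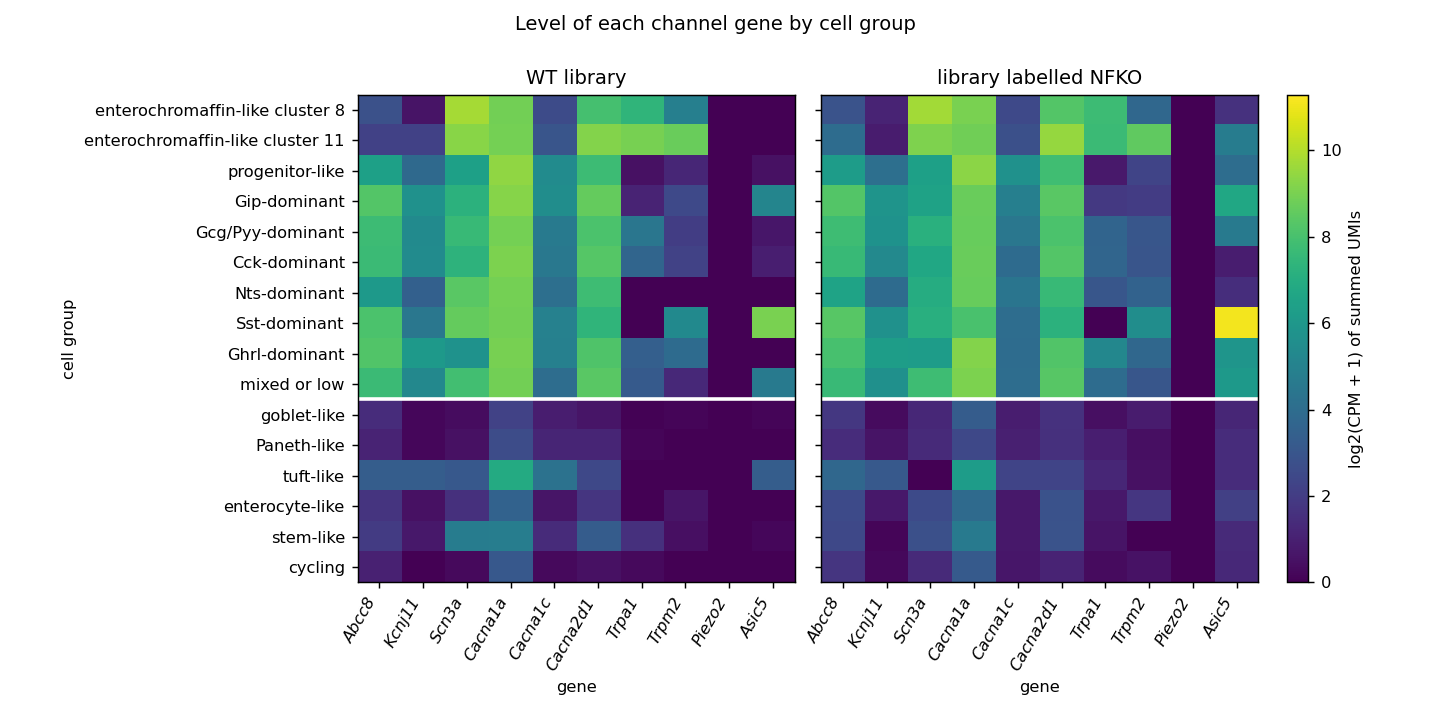
Level of the 10 channel genes (columns) as log2(CPM + 1), by colour, in 16 cell groups (rows), with the WT library in one panel and the NFKO-labelled library in the other. The white line parts endocrine from non-endocrine groups. Scn3a and Trpa1 are highest in enterochromaffin-like cells, and Trpm2 in enterochromaffin-like cluster 11. Abcc8 is highest in Gip-dominant, Sst-dominant and Ghrl-dominant cells and Asic5 in Sst-dominant cells. The Piezo2 column is 0 throughout.

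The 2 KATP channel subunits had high levels in peptide hormone cells and low levels in enterochromaffin-like cells. On build GRCm38 the genes are neighbours on the minus strand, Kcnj11 at chr7:46093953-46100764 and Abcc8 at chr7:46104523-46180033. In WT, Abcc8 stood at 306 CPM in Gip-dominant, 300 CPM in Ghrl-dominant and 270 CPM in Sst-dominant cells, which did not differ beyond their intervals. Gcg/Pyy-dominant cells at 215 CPM and Cck-dominant cells at 204 CPM came next, with neighbouring intervals overlapping. The progenitor-like cells, at 84.3 CPM, and the Nts-dominant cells, at 65.7 CPM, formed a lower step. Enterochromaffin-like cells held 13 Abcc8 UMIs in 203 cells, or 5.6 CPM (2.98 to 9.57).

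The NFKO-labelled library had nearly the same Abcc8 levels. They were 329 CPM in Sst-dominant, 306 CPM in Gip-dominant, 255 CPM in Ghrl-dominant, 223 CPM in Gcg/Pyy-dominant and 191 CPM in Cck-dominant cells. Nts-dominant cells had 92.3 CPM, progenitor-like cells 74.0 CPM and enterochromaffin-like cells 9.86 CPM. The ratio of the NFKO-labelled library to WT in Gip-dominant cells was 1.00 (0.909 to 1.10). To set shares of cells side by side at the same depth, each cell was thinned to 5000 UMIs and shallower cells were left out, which removed 74 of 202 WT and 43 of 406 Gip-dominant cells. Abcc8 then had a UMI in 68.0% and 77.1% of Gip-dominant cells, against 1.58% and 4.87% of enterochromaffin-like cells.

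Kcnj11 followed a similar order at lower counts. It was highest in Ghrl-dominant cells, at 67.8 CPM in WT and 77.1 CPM in the NFKO-labelled library, on 14 and 36 UMIs. Gip-dominant cells had 50.9 and 56.4 CPM, Cck-dominant cells 42.2 and 39.4 CPM, and Gcg/Pyy-dominant cells 40.8 and 53.4 CPM. The intervals of these neighbours overlapped. Sst-dominant cells had 21.3 CPM on 7 UMIs in WT and 51.3 CPM on 74 UMIs in the NFKO-labelled library. In enterochromaffin-like cells there were 2 and 6 Kcnj11 UMIs, or 0.861 and 1.02 CPM.

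Kir6.2 and SUR1 assemble into 1 channel, so their transcripts were also compared cell by cell. After thinning, Abcc8 had a UMI in 74.7% of the 91 WT enteroendocrine-like cells with a Kcnj11 UMI (64.5 to 83.3%) and in 38.7% of the 745 without (35.1 to 42.3%). The corresponding shares in the NFKO-labelled library were 63.3% of 248 and 37.1% of 1503. Within Gip-dominant cells the intervals overlapped. There the shares with and without Kcnj11 were 78.3% and 65.7% in WT and 72.4% and 78.6% in the NFKO-labelled library. Thus the pairing seen over all endocrine cells was not seen within this hormone group at this depth.

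Scn3a (chr2:65457118-65567627, minus strand), the sodium channel gene among the members, was highest in enterochromaffin-like cells. Its level there was 837 CPM in WT (800 to 875) and 725 CPM in the NFKO-labelled library (704 to 747), and after thinning 95.3% and 90.0% of the cells had a UMI. The WT order below them was Sst-dominant at 395 CPM, Nts-dominant at 335 CPM, Gcg/Pyy-dominant at 197 CPM, Cck-dominant at 158 CPM and Gip-dominant at 153 CPM. Progenitor-like cells had 83.5 CPM and Ghrl-dominant cells 53.2 CPM. Enterochromaffin-like cells were apart from all of these groups in both libraries, whereas Sst-dominant and Nts-dominant cells did not differ beyond their intervals.

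In 5 of the 6 peptide hormone groups Scn3a was lower in the NFKO-labelled library. Sst-dominant cells had 138 CPM there, a ratio of 0.349 (0.279 to 0.439), and Nts-dominant cells had 125 CPM, a ratio of 0.372 (0.270 to 0.510). The ratio was 0.577 in Gip-dominant, 0.660 in Cck-dominant and 0.736 in Gcg/Pyy-dominant cells. In progenitor-like cells the ratio was 1.01 (0.847 to 1.2), at 83.9 CPM, and Ghrl-dominant cells had 75.0 CPM on 35 UMIs against 11 UMIs in WT. Some of these groups also differed in quality and in what else they transcribed. WT Gip-dominant cells had a median of 6998 UMIs and 6.90% mitochondrial UMIs, against 16658 and 2.34% in the NFKO-labelled library, and Sst-dominant cells had 7013 and 6.52% against 16504 and 2.53%. Gip itself had a median over Gip-dominant cells of 79655 CPM in WT and 203542 CPM in the NFKO-labelled library. The median of Sst over Sst-dominant cells was 101465 and 233683 CPM. The part of hormone share, depth and quality in the lower Scn3a was not tested.

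**Figure D2:**
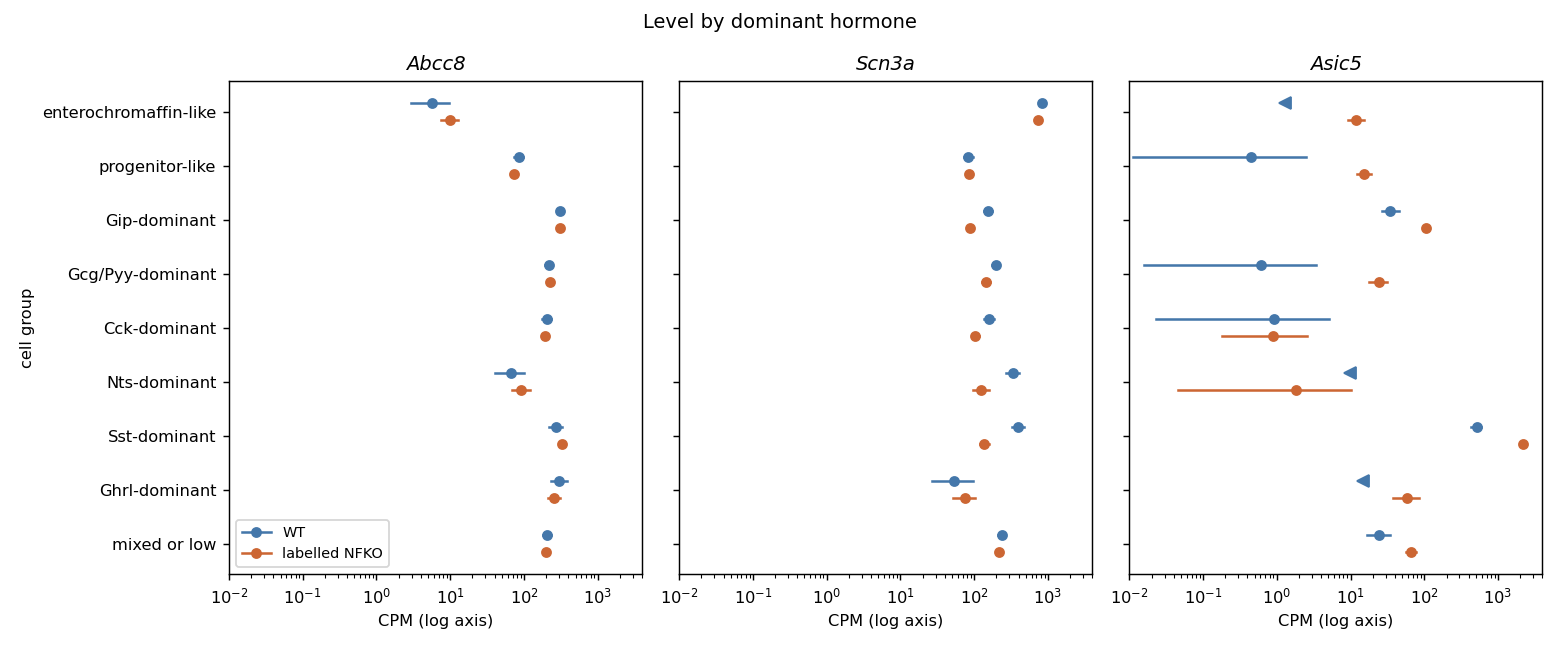
Level in CPM (log axis) of Abcc8, Scn3a and Asic5 in each endocrine group, with WT and the NFKO-labelled library side by side. Bars are 95% Poisson intervals, and left-pointing triangles stand at the limit that a count of 0 allows. Abcc8 levels of the 2 libraries lie close together, Scn3a of Sst-dominant cells lies at 395 and 138 CPM, and Asic5 of Sst-dominant cells at 510 and 2161 CPM.

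Cacna1a (chr8:84388440-84640246, plus strand) was spread over every endocrine group. In WT it ranged among the named groups from 468 CPM in Sst-dominant cells to 685 CPM in progenitor-like cells, less than a 2-fold span. The shallow cluster left unnamed, which passed 7 enteroendocrine markers, stood above this range in WT, at 1054 CPM on 235 UMIs. In the NFKO-labelled library that cluster had 448 CPM. The WT progenitor-like level lay above the Gip-dominant level of 603 CPM, and the groups from Gip-dominant downwards had overlapping intervals with their neighbours. Its range in the NFKO-labelled library was 265 CPM in Sst-dominant to 638 CPM in progenitor-like cells. Gip-dominant cells had 413 CPM there, a ratio to WT of 0.686 (0.638 to 0.738), and Sst-dominant cells a ratio of 0.566 (0.468 to 0.687). Both groups differed between the libraries in depth, mitochondrial share and hormone level, as given above, and that part was not tested. Enterochromaffin-like cells had 478 and 491 CPM. After thinning, 88.3% and 85.8% of all enteroendocrine-like cells had a Cacna1a UMI, so transcripts of this calcium channel pore were detected in most of them.

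Cacna1c, the L-type pore (chr6:118587240-119196418, minus strand), had far fewer UMIs than Cacna1a, 293 in WT and 666 in the NFKO-labelled library over all enteroendocrine-like cells. It was highest in Gip-dominant cells in WT, at 45.7 CPM (36.2 to 57.0), and in progenitor-like cells, at 42.8 CPM (34.7 to 52.3). In the NFKO-labelled library progenitor-like cells led with 50.9 CPM (45.2 to 57.1) and Gip-dominant cells had 28.4 CPM, a ratio of 0.621 (0.474 to 0.819). The part of depth, quality and hormone level in that ratio was likewise not tested. Within the progenitor-like cells the Ghrl-dominant ones, 66 and 153 cells, had 69.6 and 74.3 CPM and the others 28.5 and 34.2 CPM. Cck-dominant cells had 22.0 and 14.2 CPM and Gcg/Pyy-dominant cells 24.1 and 21.2 CPM. Enterochromaffin-like cells were lowest of the groups in both libraries, at 5.17 and 5.10 CPM on 12 and 30 UMIs.

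Cacna2d1, the auxiliary subunit (chr5:15934691-16374511, plus strand), was present in every endocrine group. In WT its highest level was in Gip-dominant cells, at 390 CPM, followed by the mixed or low cells at 339 CPM, Cck-dominant cells at 318 CPM and enterochromaffin-like cells at 291 CPM. Sst-dominant cells were lowest, at 167 CPM in WT and 150 CPM in the NFKO-labelled library. The order turned in the NFKO-labelled library, with enterochromaffin-like cells highest at 487 CPM and Gip-dominant cells at 335 CPM. The enterochromaffin-like cells themselves fell into 2 clusters, whose shares differed between the libraries.

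The larger of these clusters in WT was led by Tac1, which encodes substance P, and held 171 WT and 253 cells of the NFKO-labelled library. Tac1 stood there at 9913 and 7859 CPM. The other cluster, with Cartpt among its leading genes and more Reg4 (16958 against 2200 CPM in WT), held 32 and 267 cells. It was thus 32 of 203 enterochromaffin-like cells in WT and 267 of 520 in the NFKO-labelled library. Cacna2d1 stood at 250 and 310 CPM in the Tac1-led cluster and at 577 and 734 CPM in the Reg4-rich cluster. Between libraries the ratio was 1.24 and 1.27 within the clusters, and 1.68 over both together.

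Among the members Trpa1 (chr1:14872648-14918862, minus strand) had the highest ratio of enterochromaffin-like to other endocrine cells in both libraries. Its level there was 210 CPM in each library, on 487 and 1235 UMIs, while the other enteroendocrine-like cells had 6.98 and 6.31 CPM. The transcripts were uneven among the cells. Before thinning, a UMI was seen in 40.4% and 42.1% of enterochromaffin-like cells. In WT 15 cells and in the NFKO-labelled library 33 cells held 50% of the UMIs, with up to 28 and 77 in 1 cell. Within the Tac1-led cluster the level was 168 and 210 CPM, a ratio of 1.26 (1.10 to 1.43). In the Reg4-rich cluster it was 507 and 209 CPM, a ratio of 0.413 (0.343 to 0.5). The equal levels of the whole group therefore rested on opposite differences within its clusters, of which the WT Reg4-rich cluster was 32 cells.

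Outside enterochromaffin-like cells Trpa1 was low. Gcg/Pyy-dominant cells had 20.4 CPM in WT and 11.5 CPM in the NFKO-labelled library, and Cck-dominant cells 11.9 and 11.8 CPM. Ghrl-dominant cells had 9.68 CPM on 2 UMIs and 36.4 CPM on 17 UMIs. No Trpa1 UMI was seen in 39 and 90 Sst-dominant cells, which allows levels of up to 9.12 and 2.08 CPM. That count of 0 allows a share of cells with a UMI of up to 7.69% and 3.33%, and sets no limit on cells that carry the transcript.

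Trpm2 was highest in the Reg4-rich enterochromaffin-like cluster. There it stood at 420 CPM in WT (349 to 502) and 375 CPM in the NFKO-labelled library (351 to 400). Before thinning, 90.6% of the cells of this cluster had a UMI in each library. The Tac1-led cluster had 28.5 CPM (21.6 to 36.8) and 12.5 CPM (9.07 to 16.9). Among the hormone groups the Sst-dominant cells came next, with 39.5 and 45.7 CPM. The other hormone groups were at or below 14.5 CPM in WT and 12.9 CPM in the NFKO-labelled library. Over both clusters together the enterochromaffin-like level was 77.0 CPM in WT and 163 CPM in the NFKO-labelled library.

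Asic5 was concentrated in Sst-dominant cells, the D cells of the gut, which secrete somatostatin. Their level was 510 CPM (436 to 594) in WT and 2161 CPM (2086 to 2238) in the NFKO-labelled library. After thinning, 52.2% of 23 WT cells and 83.9% of 87 cells of the NFKO-labelled library had a UMI. The highest single cell held 28 UMIs in WT and 142 in the NFKO-labelled library. Gip-dominant cells, the K cells, came next at 34.7 CPM (26.5 to 44.7) and 106 CPM (98.1 to 114).

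The mixed or low cells followed at 24.5 CPM (16.8 to 34.3) and 66.2 CPM (56.0 to 77.8), with 32 of 33 UMIs in 1 WT cell and 85 of 149 in 1 cell of the NFKO-labelled library. In WT, Gcg/Pyy-dominant, Cck-dominant and progenitor-like cells had 1 UMI each, and Nts-dominant, Ghrl-dominant and enterochromaffin-like cells none. Levels in the NFKO-labelled library were 24.0 CPM in Gcg/Pyy-dominant, 15.2 CPM in progenitor-like and 11.9 CPM in enterochromaffin-like cells. Of the 86 progenitor-like UMIs, 79 were in the Ghrl-dominant progenitor-like cells (33.4 CPM) and 7 in the others (2.12 CPM). The hormone group of Ghrl-dominant cells had 27 UMIs in that library, of which 26 were in 1 cell. Cck-dominant cells had 3 UMIs in 173 cells, or 0.888 CPM.

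No UMI of Piezo2 was seen in any kept cell of either library. Being 0 of 3003 and 0 of 5292 cells, this allows a share of cells with a UMI of up to 0.0999% and 0.0567%, or levels of up to 0.0387 and 0.0280 CPM. In enterochromaffin-like cells, 0 of 203 and 0 of 520 allow a share of cells with a UMI of up to 1.48% and 0.577%. These limits cover counting error, and apply to transcripts that the 3′ counting could assign to the gene.

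Enterochromaffin-like cells were then set against all other enteroendocrine-like cells. Of the 9 members with enough counts, 3 were at least 2-fold higher (Scn3a, Trpa1, Trpm2), 4 at least 2-fold lower (Abcc8, Kcnj11, Cacna1c, Asic5) and 2 in between (Cacna1a, Cacna2d1), and the same genes fell in each class in both libraries. Over all genes 4.5% were higher and 6.49% lower in WT, and 7.78% and 6.73% in the NFKO-labelled library. Trpa1 was 30.1-fold (23.0 to 39.8) and 33.3-fold (27.9 to 39.9) higher. Trpm2 was 18-fold and 20.8-fold higher, and Scn3a 4.94-fold and 6.47-fold. The irritant receptor, the ADP-ribose-gated channel and the sodium channel were thus on the enterochromaffin side. For Trpm2 the 2 clusters differed. The Reg4-rich cluster stood 98.3-fold and 47.8-fold above the other endocrine cells. The Tac1-led cluster stood 6.67-fold above them in WT and 1.60-fold (1.12 to 2.24), below the 2-fold rule, in the NFKO-labelled library.

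On the peptide hormone side, Abcc8 in enterochromaffin-like cells stood at 0.0287 of its level in the other endocrine cells in WT (0.0152 to 0.0491) and 0.0479 in the NFKO-labelled library. Kcnj11 stood at 0.0250 and 0.0245, and Cacna1c at 0.163 and 0.178. Asic5 had no UMI in WT enterochromaffin-like cells and was at least 23.0-fold lower there, taking 3 counts in the group as the limit (exact interval of the ratio, 0 to 0.0538), and stood at 0.0643 in the NFKO-labelled library. Cacna1a was nearly even, with ratios of 0.849 and 1.03. Cacna2d1 was even in WT, at 1.01 (0.922 to 1.09), and 1.74-fold higher (1.67 to 1.82) in the NFKO-labelled library.

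**Figure D3:**
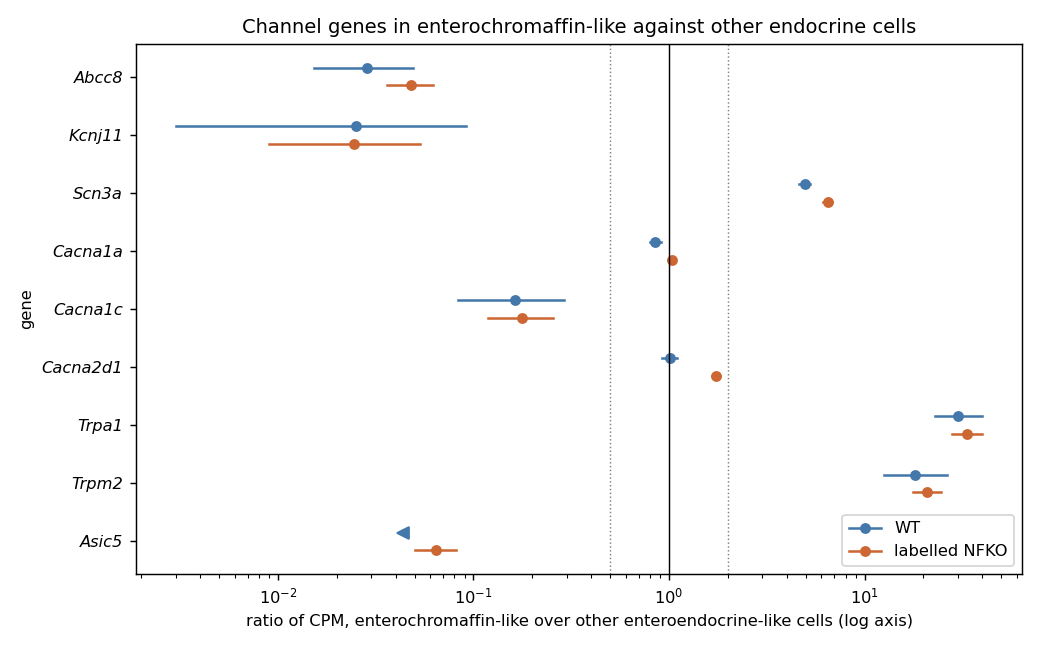
Ratio of the level in enterochromaffin-like cells to that in the other enteroendocrine-like cells (log axis) for each member, in WT and in the NFKO-labelled library, with 95% intervals. Dotted lines mark 2-fold either way, and the left-pointing triangle is WT Asic5, with no UMI, at its bound. Trpa1, Trpm2 and Scn3a lie above 2-fold, Cacna1a and Cacna2d1 between the lines and the other 4 below.

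The other channel genes were taken from a panel of 123 genes of the same families. In the comparison of endocrine with non-endocrine cells, 37 of 56 with enough counts were higher in WT and 11 lower, and 41 of 64 and 14 in the NFKO-labelled library. The highest ratios belonged to Kcnk2, a background potassium channel, Kcnj3 (a subunit of G protein-gated potassium channels) and Cacnb2 (an auxiliary calcium channel subunit) in WT, at 294-fold, 274-fold and 185-fold. In the NFKO-labelled library they belonged to Scn9a, Kcnj6 and Kcnb2, at 246-fold, 246-fold and 153-fold. Kcnk2 and Scn9a rested on 1 non-endocrine UMI. The lowest were Kcne3, Kcnk6 and Scn2b in WT, at 0.0177, 0.0234 and 0.0336, and Kcne3, Kcnn4 and Kcnk6 in the NFKO-labelled library, at 0.0214, 0.0264 and 0.0297. Kcne3 and Kcnn4, which take part in ion secretion by epithelia, thus lay on the non-endocrine side.

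Between enterochromaffin-like and other endocrine cells, 8 of 40 panel genes were higher and 8 lower in WT, and 14 of 51 and 13 in the NFKO-labelled library. Trpc7, a diacylglycerol-sensitive cation channel, had the highest ratio in both libraries, 74.4-fold (38.3 to 165) and 108-fold (56.1 to 239). Trpc4 at 23.8-fold came next in WT. In the NFKO-labelled library the next were the calcium release channel Ryr3 at 43.8-fold and the calcium-activated chloride channel Ano1 at 34.6-fold. The lowest were Kcnk2, with 0 of 50 UMIs, Scn3b at 0.0299 and Kcnj6 at 0.0773 in WT. In the NFKO-labelled library they included Scn9a, with 0 of 90 UMIs, and Kcnk2 at 0.0166.

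The genotype comparison asked which channels differed between the NFKO-labelled library and WT. In all enteroendocrine-like cells, 2 of the 9 members compared were at least 2-fold higher in the NFKO-labelled library, Trpm2 and Asic5, and none was 2-fold lower. Over all genes 2.77% were higher and 1.95% lower. The other 7 had ratios from 0.782 (Scn3a) to 1.21 (Kcnj11). Abcc8 was at 1.06 (0.999 to 1.12), Trpa1 at 1.00 (0.905 to 1.11), Cacna1a at 0.878, Cacna1c at 0.908 and Cacna2d1 at 1.12. The KATP, sodium and calcium channel genes thus stayed within 2-fold over the endocrine cells as a whole.

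Asic5 went from 264 to 4177 UMIs, or from 23.6 to 149 CPM, a ratio of 6.32 (5.58 to 7.18). Few cells carried it. In WT, 6 cells held 50% of its UMIs, against 25 cells in the NFKO-labelled library. Without the 5 cells of each library with most Asic5 UMIs the ratio was 10.3. Those 5 cells held a larger part of the UMIs in WT, so the rise cannot show how stable the ratio is. With male-typed cells alone the ratio was 9.17. The male-typed cells were 796 in WT and 124 in the NFKO-labelled library, of which 30 and 8 were Sst-dominant. Within Sst-dominant cells the ratio was 4.23 (3.62 to 4.97) and within Gip-dominant cells 3.05 (2.34 to 4.04). These groups also differed in depth and mitochondrial share, as given above, and that part was not tested.

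Trpm2 went from 19.4 CPM to 40.4 CPM in enteroendocrine-like cells, a ratio of 2.09 (1.81 to 2.43), and lay at the edge of the 2-fold rule. With doublet scores ignored, a clustering resolution of 1.2 or another seed it was 1.95, 1.96 and 1.90. In enterochromaffin-like cells the ratio was 2.12 (1.81 to 2.5). Within the Tac1-led cluster it was 0.440 (0.289 to 0.664) and within the Reg4-rich cluster 0.891 (0.737 to 1.09). In neither cluster was the ratio above 1, while the Reg4-rich cluster, where Trpm2 was high, made up more of its enterochromaffin-like cells.

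In enterochromaffin-like cells 7 members had enough counts, and Kcnj11, Cacna1c and Piezo2 did not. Trpm2 and Asic5 were again higher, with none lower, against 4.02% of all genes higher and 1.39% lower. The Asic5 call was lost with cells classed by their own markers and with male-typed cells alone, and Trpm2 lay at 1.998 with doublet scores ignored. Asic5 went from no UMI in 203 cells to 70 UMIs in 520 cells, at least 9.22-fold higher with 3 counts as the limit for WT, and the exact interval of the ratio starts at 7.30. Of those 70 UMIs, 63 were in the Reg4-rich cluster. Non-endocrine cells of the NFKO-labelled library also had more Asic5, at 1.67 against 0.152 CPM. Cacna2d1 had a ratio of 1.68, Abcc8 1.76 (0.954 to 3.51), Cacna1a 1.03, Trpa1 1.00 and Scn3a 0.866.

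**Figure D4:**
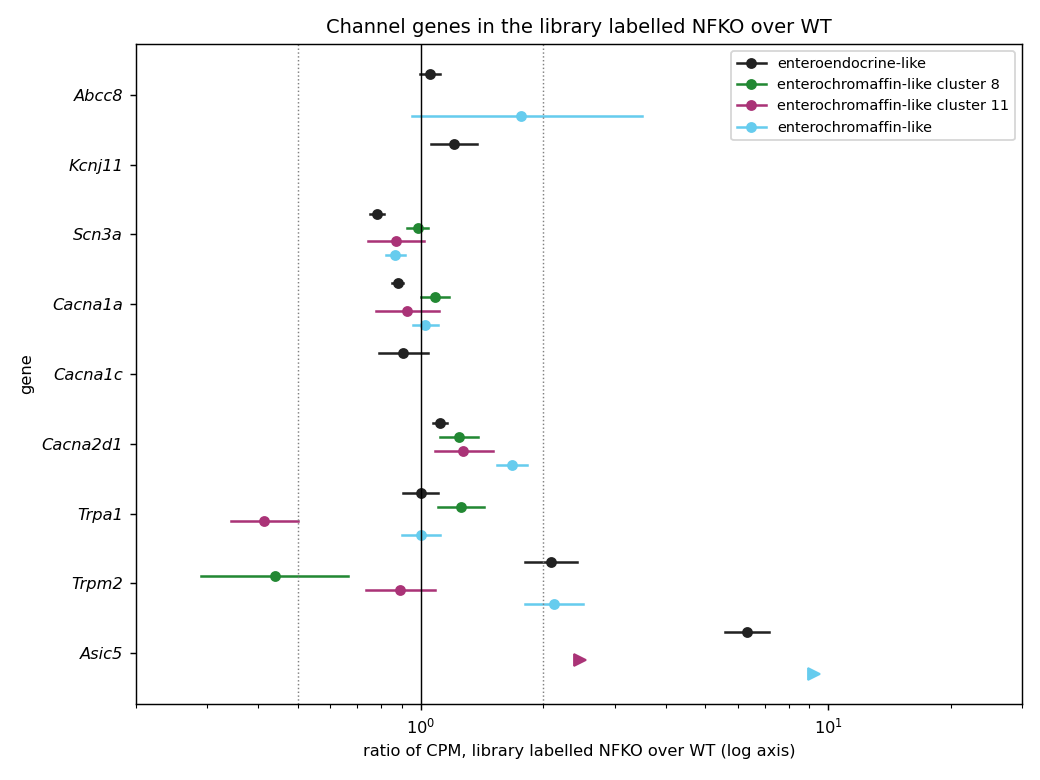
Ratio of the NFKO-labelled library to WT (log axis) for each member in all enteroendocrine-like cells, in the Tac1-led cluster (8), in the Reg4-rich cluster (11) and in all enterochromaffin-like cells, with 95% intervals, where at least 50 UMIs were counted. Right-pointing triangles are lower bounds where WT had no UMI. Asic5 lies above 2-fold where it was drawn, and Trpm2 lies above 2-fold in the whole group but below 1 in each cluster.

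Among the other panel genes, 6 of 56 were at least 2-fold higher and 2 lower in the enteroendocrine-like cells of the NFKO-labelled library. Among the highest were Kcnc4, a fast potassium channel, at 9.98-fold and the sodium channel Scn9a at 4.49-fold, resting on 2 and 8 WT UMIs. The lowest were Scn11a at 0.228, Cacnb1 at 0.368 and Trpc7 at 0.580. In enterochromaffin-like cells 3 of 34 were higher and none lower. These were Ano1 at 4.34-fold, Kcnj3 at 4.13-fold and Kcnc1 at 2.18-fold, and the lowest were Trpc7 at 0.582, Ryr3 at 0.674 and Itpr2 at 0.678.

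Outside the endocrine lineage, tuft-like cells held the most Kcnj11, Cacna1a and Cacna1c relative to the endocrine cells. Tuft cells are chemosensory cells of the epithelium. To judge such low levels, each member's level in a class was written as a percent of its own enteroendocrine-like level and set beside 18 endocrine reference genes treated alike. In tuft-like cells the reference genes reached at most 13.4% in WT and 6.32% in the NFKO-labelled library. Cacna1a stood at 21.8% and 15.8%, on 79 and 174 UMIs, and Kcnj11 at 32.9% and 23.6%, on 6 and 18 UMIs. Cacna1c stood at 69.1% and 16.5% on 12 and 9 UMIs. By point value all 3 lay above the reference range in both libraries, and Abcc8, at 5.79% and 7.65%, in the NFKO-labelled library. The intervals of Kcnj11 in WT and of Abcc8 in the NFKO-labelled library reached into the range. WT tuft-like cells had a median of 6311 UMIs and 12.5% mitochondrial UMIs, against 16720 and 4.94% in the NFKO-labelled library. In other classes Cacna1c also passed the highest reference gene of goblet-like cells, at 3.40% and 3.74%, and of Paneth-like cells, at 4.84% and 4.14%. Trpm2 did so in enterocyte-like cells of the NFKO-labelled library, at 6.02% on 19 UMIs. In WT alone, Abcc8 did so in goblet-like cells, at 1.11%, and Cacna1a in Paneth-like cells, at 0.964%. Cycling cells of WT, where the reference genes reached 0.532%, had 1.41% of Cacna1a on 36 UMIs. Cacna1c, at 0.818%, rested there on 1 UMI, and Abcc8, at 0.685%, on 5 UMIs. In stem-like cells of the NFKO-labelled library Cacna1a passed the highest reference gene at 5.03%. In these other classes most intervals reached down to the highest reference gene or below it. Those wholly above it were Cacna1c in WT goblet-like and Paneth-like cells and Cacna1a in WT cycling cells.

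In levels, tuft-like cells had 119 and 75.6 CPM of Cacna1a, 11.9-fold and 7.59-fold above the remaining non-endocrine cells. Kcnj11 stood at 9.03 and 7.82 CPM and Abcc8 at 9.03 and 12.6 CPM, so both KATP subunits had UMIs there. Scn3a and Trpa1 did not share this. Scn3a had 5 UMIs in 1 WT cell and none in 142 cells of the NFKO-labelled library, which allows up to 1.30 CPM. Trpa1 had 0 and 3 UMIs. Asic5 had 6 UMIs in 2 WT tuft-like cells, 38.3% of its WT endocrine level and above the reference range. In the NFKO-labelled library it had 4 UMIs, 1.17%.

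Scn3a had its highest non-endocrine level in WT stem-like cells, with 354 UMIs or 25.8 CPM, against 44 UMIs or 5.66 CPM in the NFKO-labelled library. The WT transcripts lay in few cells. Of 280 WT stem-like cells, 28 had at least 5 Scn3a UMIs and together held 310 of the 354 UMIs, and 27 of these 28 also had at least 5 UMIs of the endocrine marker Chga. Only 2 of 154 cells of the NFKO-labelled library had as many, and both had Chga. Chga stood at 281 and 64.6 CPM in the stem-like cells. Enterocyte-like cells had 14 Scn3a UMIs in WT and 37 in the NFKO-labelled library.

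**Figure D5:**
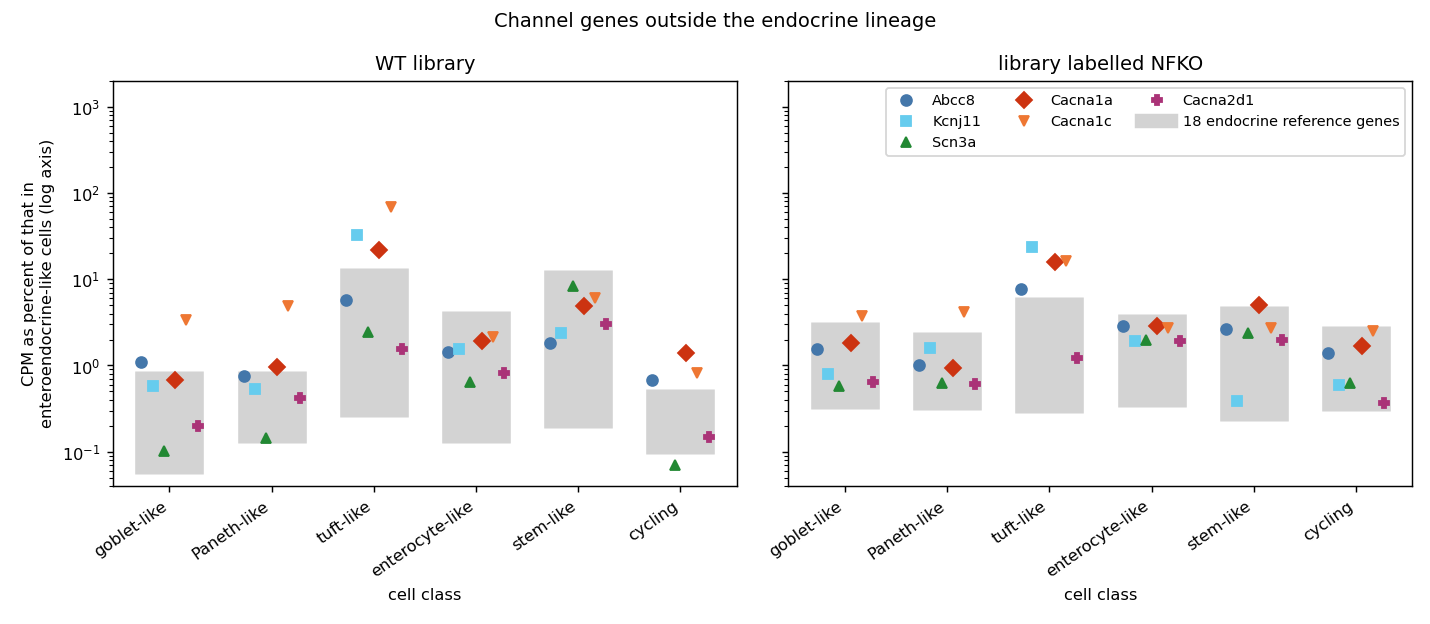
Level in each non-endocrine class as a percent of the enteroendocrine-like level (log axis) for 6 members, by library, with grey bars for the range of 18 endocrine reference genes. The points of Cacna1a, Cacna1c and Kcnj11, drawn without intervals, lie above the grey range in tuft-like cells of both libraries. Scn3a of WT stem-like cells lies at 8.39%, inside a range that reaches 12.8%.

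Several of the members are also neuronal genes, so markers of other cell types were counted in the enteroendocrine-like cells. Of 6 enteric neuron markers, 3 had no UMI in WT and 1 in the NFKO-labelled library, and the summed level was 66.2 and 59.4 CPM, mostly Nefl. Enterochromaffin-like cells had 13.8 and 19.2 CPM of the same list, again with 3 and 1 of the markers at 0. Of 5 glial markers Sox10 was at 0 in both libraries, and the list summed to 6.24 and 8.44 CPM. The 6 mesenchymal markers summed to 0.624 and 0.570 CPM. The 9 immune markers summed to 29.9 and 42.0 CPM, mostly Cd74.

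The genes whose pattern was most like that of a member were found by Pearson correlation of log2(CPM + 10) over 31 group-by-library points with at least 20 cells. These points share libraries, so the values are descriptions. Abcc8 and Kcnj11 were each other's closest gene (r = 0.962), ahead of the transcription factor gene Isl1 at 0.959 for Abcc8 and Mctp2 at 0.919 for Kcnj11. Scn3a was closest to the granin gene Chgb (0.964), Cacna1a to Cryba2 (0.978) and Cacna2d1 to the potassium channel gene Kcnb2 (0.988). Cacna1c was closest to Mctp2 (0.901). For Trpa1 the closest were Il18r1 (0.950), Slc38a11 (0.938) and Lmx1a (0.937), the last a transcription factor gene and an enterochromaffin marker used to name the cells. Trpm2 was closest to Pla2g7 (0.931). Asic5 was closest to Hhex (0.924), a transcription factor gene of somatostatin cells, followed by the islet amyloid peptide gene Iapp (0.923) and Sst (0.873). Chgb and Isl1 were likewise markers used to name the cells, and Sst defined the Sst-dominant group. The correlations with these genes are therefore not independent of how the groups were made.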

How the data were processed

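Small-intestinal Tomato+ cells of 2 libraries (1 WT, 1 NFKO, 4 to 5 pooled mice each) were profiled with 10x Genomics 3′ chemistry. The deposited values are raw UMI counts per gene and cell, which per the submitters' processing notes came from Cell Ranger 5.0.1 on mm10, and no normalization by the authors had been applied. A barcode was kept when it had 500 genes or more, 1000 UMIs or more and no more than 25% of its UMIs from mitochondrial genes. The highest doublet scores, from an implementation of the Scrublet score, were removed at 0.8% per 1000 barcodes (126 and 340 cells). Cells of both libraries were clustered together with Seurat 5.3.0 in R 4.3.3 (2000 variable genes, 30 components, 20 neighbours, resolution 0.8, no integration) without the channel panel, Foxo1, insulin, Iapp and sex-linked genes. Clusters were named from at least 3 markers. A rebuilt name may differ from the study's own.

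Counts were summed per group and library, and levels are counts per 1e6 UMIs (CPM) of these sums, with 95% Poisson intervals. Shares have Clopper-Pearson and ratios exact conditional binomial intervals. All of them cover counting error only, since cells of 1 library are not replicates. A count of 0 was given the limit of 3 counts. A gene was compared where both groups together held at least 50 UMIs, and called at 2-fold, with no test. Shares were compared after thinning to 5000 UMIs, except those of Trpa1, Trpm2 and Piezo2, which are given as counted. All members with enough counts were named in every comparison. Of the other panel genes the 3 highest and 3 lowest ratios were named, and for each member the 3 genes most like it, among genes with at least 500 UMIs, were found. Some genes that this rule named are not reported here. The members and lists were chosen with earlier results of these data known. The calculations were checked on simulated counts. Coordinates are GRCm38, and promoter windows are from RefSeq. Python 3.11.15, numpy 2.4.6, scipy 1.17.1 and pandas 2.3.3 were used.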

Additional observations from a re-analysis of the deposited data

Results flagged for a closer look

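The ratio of the NFKO-labelled library to WT for Scn3a went in opposite directions between some cell groups. In enterocyte-like cells it was 2.40 (1.27 to 4.81), on 14 and 37 UMIs. In Nts-dominant cells it was 0.372 (0.270 to 0.510), in Sst-dominant cells 0.349 (0.279 to 0.439) and in stem-like cells 0.219 (0.157 to 0.301). The difference between the groups was not tested, since each genotype was 1 library. In enterocyte-like cells 25 of the 37 UMIs of the NFKO-labelled library were in 4 cells that also had at least 5 Chga UMIs.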

How the results depend on the processing

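No paired analysis was possible because each genotype was 1 library. Of the counts and shares that answer a comparison, 133 values under an alternative stayed within 1.5 times or the interval of the reported value and 11 moved. In enteroendocrine-like cells the 2 members higher in the NFKO-labelled library became 1 (Asic5) with doublet scores ignored, at resolution 1.2 and with another seed, where Trpm2 had a ratio of 1.95, 1.96 and 1.90. In enterochromaffin-like cells the 2 became 1 (Trpm2) with cells classed by their own markers and with male-typed cells alone. With doublet scores ignored Trpm2 was at 1.998 there and Abcc8 was called in its place, and weighting each cell alike added Abcc8. In the Tac1-led cluster alone, an alternative chosen after seeing the data, 0 were higher and 1 lower, with Trpm2 reversed to 0.440. Thinned to 2000 UMIs, Abcc8 had a UMI in 35.5% of WT cells with Kcnj11 and 27.8% without, and in 40.2% and 23.1% of cells of the NFKO-labelled library. The cause of these moves was not tested, except that thinning to fewer UMIs lowers any share of cells with a UMI. The other additions chosen after seeing the data, which counted the shallow endocrine cluster in or split progenitor-like cells by hormone, left the counts of members within 1.5 times. Of the single ratios and levels, 575 stayed, 160 moved by more than their interval and 1 reversed, as given above. Depth limited every gene alike in small groups, since the 14 WT Ghrl-dominant cells allow up to 14.5 CPM at a count of 0.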
